A study of Rattus norvegicus with 3 samples.

Results

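The genes described here are a list of 40 rat genes of the unfolded protein response and the heat shock response, chosen by name and split into ER chaperones with ATF6, the PERK-ATF4 branch, the IRE1-XBP1 branch with ER-associated degradation (ERAD), and the chaperones of the cytosol and mitochondria. Of the 40, 37 had a probe whose accession RefSeq assigns to them, out of 15155 named genes with a value on all 3 arrays. Manf, Edem1 and Dnajb1 had no such probe and were left out. For the 6 genes with several probes the brightest was used. Of the 37, 36 were well above background on every array. The exception was Ern1, which was well above background on the control and HSD1 arrays and not on the array with the inhibitor.

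The study compared cultured heart muscle cells from the ventricles of newborn rats on 3 single-colour Agilent arrays, 1 for each group. Control cells received an empty vector, the HSD1 cells a vector that expresses 11β-HSD1, and the HSD1 plus BVT cells that same vector together with BVT.2733, an inhibitor of the enzyme. All groups were therefore transfected cells. Inside the cell, 11β-HSD1 turns inactive 11-keto steroids back into active glucocorticoid, and the study asked how it acts in hypertrophy. Equal amounts of material from the cells of a group were pooled before RNA was purified. What drives expression from the vector, how much inhibitor was used and for how long, and how many cultures made up each pool were not given in the sources used here.

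Misfolded proteins in the endoplasmic reticulum (ER) set off the unfolded protein response. The membrane sensor ATF6 is cut to release a transcription factor for ER chaperones, the kinase PERK slows translation and thereby favours ATF4, which drives amino acid supply and, when stress lasts, CHOP, and the nuclease IRE1 splices Xbp1 mRNA to make a factor for ER folding and degradation. The heat shock response is the counterpart in the cytosol, where HSF1 binds the promoters of chaperone genes. In heart muscle both responses accompany growth, ischaemia and failure.

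A level is given as the log2 signal of a gene relative to the percentile 75 of its array, so that 0 is that percentile, and a log2 ratio is the difference of 2 levels. Levels were compared between arrays for the same probe and not between genes, whose probes bind differently. Since each group has 1 array, nothing measures how cultures vary, no test was made, and genes were called only by their size of change, from 2-fold upwards. The spread between repeated spots of a probe is the only error available: a ratio of single spots had a technical SD of 0.07 for HSD1 against control, 0.07 for HSD1 plus BVT against HSD1 and 0.06 for HSD1 plus BVT against control. Each array enters 2 of these comparisons, so a chance low value on the HSD1 array lowers the first ratio and raises the second.

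The arrays were of similar quality. Between 81.2% and 82.5% of spots were well above background and no spot was saturated. The 11 cardiomyocyte markers with a probe were well above background on all 3 arrays, with summed signals of 376 (control), 422 (HSD1) and 420 (HSD1 plus BVT) times the percentile 75. All 11 fibroblast markers were present too (195, 196 and 188 times), as were 10 of 10 smooth muscle and pericyte markers (51.9, 60.2 and 47.8 times), 9 or 10 of 10 macrophage markers (16.2, 21.7 and 18.2 times) and 6 of 8 endothelial markers (5.41, 8.30 and 9.79 times, with Tie1 and Emcn not well above background), so markers of other heart cell types were present beside those of cardiomyocytes. These sums add different probes and are led by the brightest, which for the endothelial list was Kdr. Gene by gene, 6 of 6 measured endothelial markers were above 0 in HSD1 against control (median log2 ratio 0.71). In HSD1 plus BVT against HSD1, 4 of 6 were below 0 (-0.45). In HSD1 plus BVT against control, 4 of 6 were above 0 (0.36). Of 10 smooth muscle and pericyte markers, 7 were above 0 in the first comparison (0.18). Of these markers 9 were below 0 in the second (-0.27) and 8 in the third (-0.23). For fibroblast markers 6, 7 and 7 of 11 were below 0 (-0.02, -0.11 and -0.18). Above 0 were 8, 7 and 8 of 11 cardiomyocyte markers and 6, 4 and 7 of 9 macrophage markers. Over all genes 59.3%, 51.2% and 58.2% were above 0. The part of these cell types in the values that follow was not tested. In RNA of whole cultures fewer cells of a type and less RNA per cell cannot be told apart. Hsd11b1 itself had levels of 3.39, 3.86 and 3.76, a 1.39-fold higher signal on the HSD1 array than in control, and no source used here says whether its probe detects the transcript of the vector. Control and HSD1 shared scan 1 while HSD1 plus BVT was alone in scan 2, so inhibitor and scan cannot be told apart.

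No member measured on both arrays of a comparison differed 2-fold. In HSD1 against control this was 0 of 37 members, beside 1.89% of the 11876 genes measured on both arrays. For HSD1 plus BVT against HSD1 it was 0 of 36 members, beside 2.08% of 11703 genes, and in HSD1 plus BVT against control 0 of 36, beside 3.69% of 11721 genes. With backgrounds this low, 0 members is not a count particular to the list. At the smaller size of 0.5 on the log2 scale, 1 of 37 members passed in HSD1 against control (11.1% of all genes), 1 of 36 in HSD1 plus BVT against HSD1 (12.5%) and 0 of 36 in HSD1 plus BVT against control (18.2%). Both passes belonged to Asns. Ern1, not well above background with the inhibitor, is outside the counts of 36: its bounds there, at least 1.73-fold below HSD1 and at least 1.43-fold below control, are both beyond 0.5, and whether it passed 2-fold was not measured. The members were mostly bright: 33 of the 37 lay at or above the median signal of genes measured on all arrays, and of the 5800 genes there, 240 were higher and 157 lower by at least 0.5 in HSD1 against control. These counts were 212 and 150 in HSD1 plus BVT against HSD1, and 359 and 185 in HSD1 plus BVT against control. In each comparison they are a smaller share than that of all genes.

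**Figure D1:**
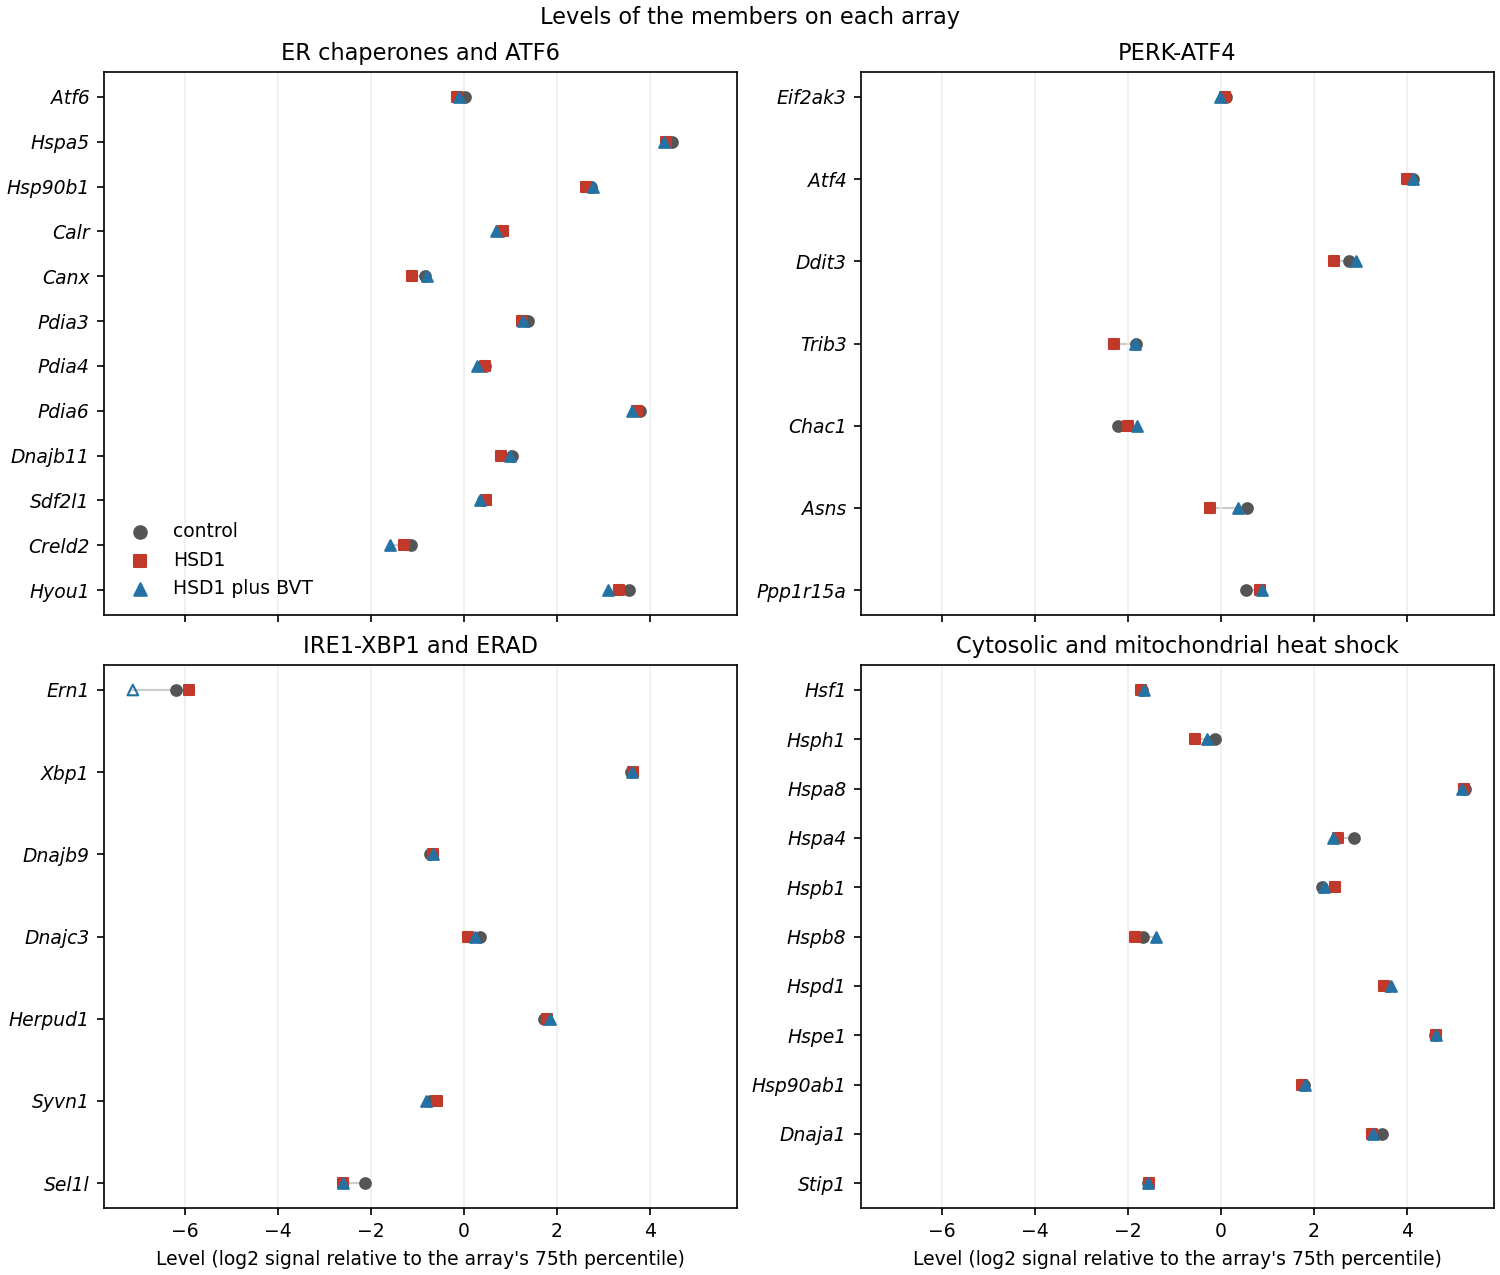
Level of each of the 37 members with a probe on the control (circle), HSD1 (square) and HSD1 plus BVT (triangle) arrays, 1 array per group, as log2 signal relative to the percentile 75 of the array, in 4 panels by branch. The open triangle marks Ern1, not well above background on that array. For most members the 3 marks overlap, while Asns shows the HSD1 array apart (-0.23) from control (0.57) and from HSD1 plus BVT (0.36).

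Over the whole list, the members lay slightly below the other genes when the vector was compared with control. The median log2 ratio was -0.06, with 25 of 37 members below 0, where the median of all genes was 0.06 and 40.7% were below 0. The gap was smaller beside the 5800 genes at or above the median signal, with a median of 0.02 and 46.6% below 0. With quantile normalization the median was -0.09 for the members and -0.01 for all genes. Between HSD1 plus BVT and HSD1 the members' median was 0.01 with 15 of 36 below 0, the same median as that of all genes (0.01, with 48.8% below 0). Against control, HSD1 plus BVT gave -0.05 with 21 of 36 below 0, beside 0.05 and 41.8% for all genes. For the 5800 brighter genes these values were 0.02 and 45.9%. The members' median of HSD1 plus BVT against HSD1 turned to -0.02 with quantile normalization.

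Most ER chaperones lay slightly below 0. In HSD1 against control 10 of 12 were below 0, with a median of -0.13 and a range from -0.27 for Canx to 0.08 for Sdf2l1. With the inhibitor set against HSD1, 7 of 12 were below 0 (median -0.08, or -0.14 with quantile normalization), and in HSD1 plus BVT against control 10 of 12 (median -0.13). The 2 medians against control were thus alike, and none of the 12 differed by 0.5 in any comparison.

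ATF6 itself, the sensor that is cut in the Golgi, had a level of 0.03 in control, -0.15 with the vector (HSD1) and -0.09 with vector and inhibitor (HSD1 plus BVT). The 3 arrays were within 0.18 of each other, and a dimmer probe for Atf6 gave a ratio of 0.12 for HSD1 against control, opposite in sign to the -0.18 of the brighter. Hspa5, which encodes BiP, the Hsp70 of the ER lumen and the usual readout of this response, had levels of 4.48, 4.35 and 4.29 in the same order. Control was the highest of the 3 arrays for BiP, with ratios of -0.13 for HSD1 and -0.19 for HSD1 plus BVT against it.

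Hyou1 and Creld2 had the lowest ratios of the branch when the inhibitor was present. Hyou1, the large Hsp70-like exchange factor that works with BiP, had levels of 3.56 on the control array, 3.34 on the HSD1 array and 3.09 on the HSD1 plus BVT array. The inhibitor array was lowest, 1.38-fold below control, and 5.85% of all genes had a lower ratio than its -0.46. Creld2, an ER-resident protein induced by ER stress, had levels of -1.13, -1.29 and -1.58. Its order was that of Hyou1, with HSD1 plus BVT 1.37-fold below control (log2 ratio -0.45, technical SD 0.07).

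Canx, which encodes the membrane lectin chaperone calnexin, had levels of -0.84 (control), -1.11 (HSD1) and -0.79 (HSD1 plus BVT). Here the HSD1 array was the low one: the ratio was -0.27 with the vector and 0.31 when HSD1 plus BVT was set against HSD1, the highest of the branch in that comparison. Under a normexp background correction these ratios of Canx were -0.14 and 0.18. Sdf2l1, a cofactor of BiP complexes, had levels of 0.41, 0.48 and 0.35, and its ratio of 0.08 with the vector, the highest of the branch, was -0.06 for its other probe.

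The other ER chaperones stayed within 0.23 of 0 in all comparisons. They were Hsp90b1, the ER form of Hsp90 (-0.10, 0.14 and 0.04 for HSD1 against control, HSD1 plus BVT against HSD1 and HSD1 plus BVT against control), the soluble lectin chaperone Calr (0.02, -0.15 and -0.13), and the BiP co-chaperone Dnajb11 (-0.23, 0.18 and -0.05). The protein disulfide isomerases Pdia3 (-0.12, 0.01 and -0.11), Pdia4 (-0.01, -0.18 and -0.19) and Pdia6 (-0.06, -0.10 and -0.17) form and reshuffle disulfide bonds. Dnajb11 was printed 10 times on each array, with an SD between spots of 0.04, 0.03 and 0.03.

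Promoters show what several of these genes share apart from the arrays. The ER stress response element (ERSE) is the site of ATF6 together with NF-Y, and was first described in promoters of ER chaperones, so its presence here is no independent evidence. Its letters, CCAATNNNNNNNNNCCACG, were searched on both strands in the 250 bases before each start in RefSeq's promoters of assembly GRCr8, and 34 of the 40 listed genes had a promoter in that table. It was found in 7 of these 34 (20.6%) and in 21 of all 27457 genes (0.0765%), among them Hspa5, Hsp90b1, Calr and Creld2 of the ER chaperones, and Xbp1 and Dnajc3 in the IRE1-XBP1 branch. The shorter ERSE-II, ATTGG and CCACG with 1 base between them, was found in Hyou1 and Herpud1, and in 14 of all genes (0.0510%). The first match of Hyou1 overlaps a match to TGACGTGG, the core of the element that ATF6 and XBP1 bind, which 163 genes hold (0.594%). The stretches of Hspa5 (chr3:38452963-38453001, + strand), Creld2 (chr7:121789229-121789267, + strand), Xbp1 (chr14:84604548-84604586, + strand) and Hyou1 (chr8:53602684-53602714, + strand, then chr8:53602784-53602814, + strand) are shown. They were chosen because these genes carry the elements and ranged from -0.22 to 0.03 with the vector. Capitals mark the match, on either strand, with 10 bases to each side.
Hspa5 ERSE: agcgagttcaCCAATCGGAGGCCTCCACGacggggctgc
Creld2 ERSE: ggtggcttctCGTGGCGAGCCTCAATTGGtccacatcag
Xbp1 ERSE: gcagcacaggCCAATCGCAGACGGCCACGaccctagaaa
Hyou1 first ERSE-II: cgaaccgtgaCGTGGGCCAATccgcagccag
Hyou1 second ERSE-II: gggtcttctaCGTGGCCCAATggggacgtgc
With the vector, Creld2 was at -0.16, Hspa5 at -0.13 and Xbp1 at 0.03, and Hyou1, with its ERSE-II, at -0.22. A match is a description of letters in this window and shows neither binding nor a cause.

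**Figure D2:**
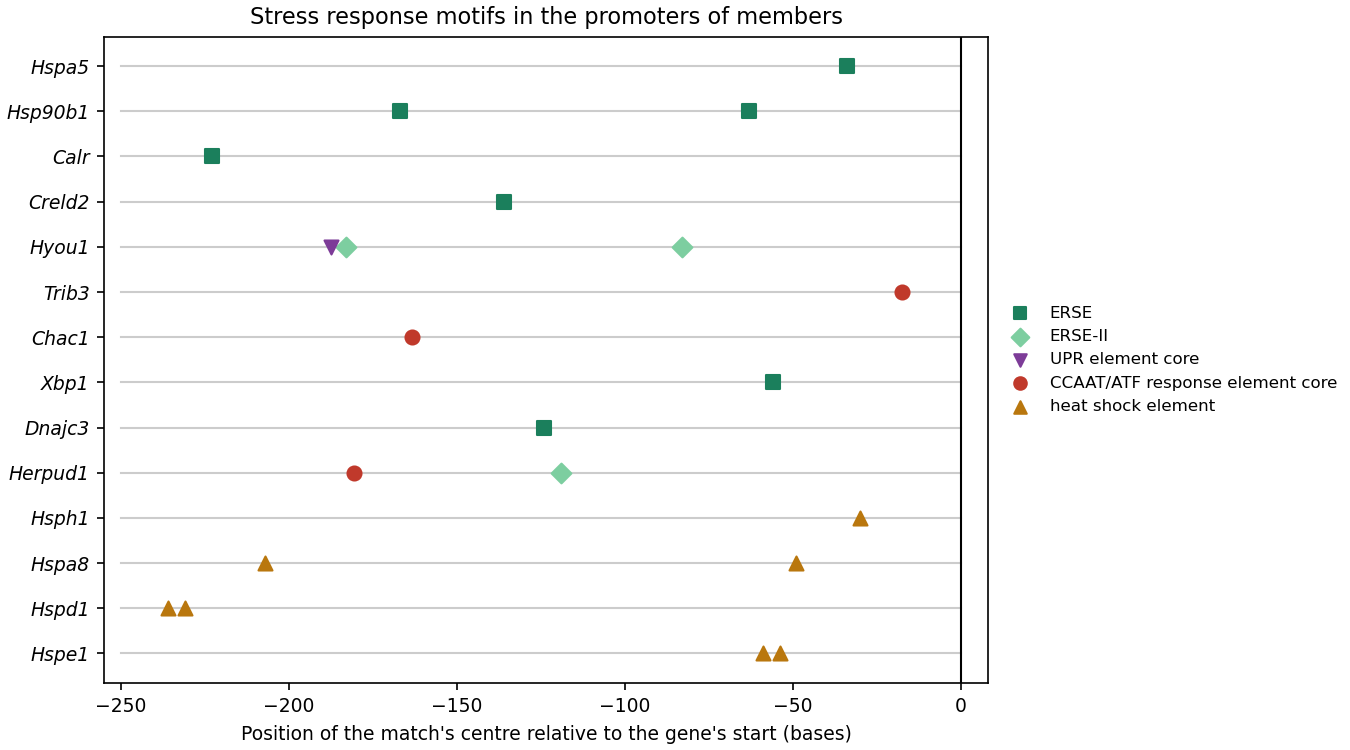
Position of each match to 5 stress response motifs in the 250 bases before the start (0) of 14 members whose RefSeq promoter holds one, as bases relative to the start, with 1 line per gene and 1 symbol per motif. Matches to ERSE or ERSE-II lie only on the lines of ER chaperones and IRE1-XBP1 genes, and matches to the heat shock element only on those of heat shock genes.

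Among ratios measured on both arrays, the PERK-ATF4 branch held the largest, those of Asns in HSD1 against control and HSD1 plus BVT against HSD1. In the second of these the bound of Ern1, at least 1.73-fold, is beyond the 1.51-fold of Asns. With the vector the ratios of the PERK-ATF4 branch ran from -0.81 for Asns to 0.31 for Ppp1r15a (median -0.13, 5 of 7 below 0). Between HSD1 plus BVT and HSD1 they ran from -0.10 for Eif2ak3 to 0.59 for Asns (median 0.21, 6 of 7 above 0), and in HSD1 plus BVT against control from -0.21 to 0.41 (median 0.01). The first and second of these comparisons share the HSD1 array. Under the other settings tried the median stayed between -0.17 and -0.13 in the first comparison and between 0.14 and 0.21 in the second, while in the third it ranged from -0.09 to 0.01 and so turned its sign.

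Eif2ak3, the gene of the kinase PERK, had levels of 0.11 on the control array, 0.09 on the HSD1 array and -0.01 on the HSD1 plus BVT array, each the mean of 10 spots with an SD of 0.07, 0.05 and 0.06. The arrays differed by no more than 0.11. Atf4, whose protein is controlled mainly by translation, had levels of 4.12, 3.99 and 4.13, also from 10 spots each with an SD of 0.04, 0.04 and 0.05. HSD1 was the lowest array for Atf4, with ratios of -0.13 for HSD1 against control and 0.14 for HSD1 plus BVT against HSD1, the second becoming 0.05 with quantile normalization.

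Asns encodes asparagine synthetase, a classical target of ATF4 in amino acid shortage. Its levels were 0.57 (control), -0.23 (HSD1) and 0.36 (HSD1 plus BVT). The HSD1 array was the low one, and HSD1 plus BVT lay between it and control. The vector array was 1.75-fold below control (log2 ratio -0.81, technical SD 0.06), a ratio that 1.03% of all genes undercut and 3.47% exceeded in size. With the inhibitor it was 1.51-fold above HSD1 (0.59) and 1.16-fold below control (-0.21). Under the other settings the ratio of HSD1 to control stayed between -0.83 and -0.78, and that of HSD1 plus BVT to HSD1 between 0.53 and 0.59.

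Ddit3, the gene of CHOP, which promotes death when ER stress lasts, had levels of 2.77 on the control array, 2.42 on the HSD1 array and 2.91 on the HSD1 plus BVT array. HSD1 was again the low array, 1.27-fold below control, and HSD1 plus BVT was 1.40-fold above HSD1 (log2 ratio 0.48, which 13.5% of all genes exceeded in size). Trib3, a pseudokinase induced by CHOP and ATF4, had ratios of -0.48, 0.45 and -0.03 in the 3 comparisons, with HSD1 again the low array, and the second became 0.26 under a normexp background correction.

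Ppp1r15a and Chac1 were placed otherwise. Ppp1r15a encodes GADD34, the phosphatase subunit that reverses the action of PERK, and had levels of 0.54 (control), 0.85 (HSD1) and 0.90 (HSD1 plus BVT). Control was the low array, 1.24-fold below HSD1. Chac1, which degrades glutathione and is a target of ATF4 and CHOP, had levels of -2.20, -2.00 and -1.79. The inhibitor array was highest, 1.33-fold above control (0.41). The known targets of this branch therefore did not share one order of the 3 arrays.

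The core of the CCAAT/ATF response element, TGATGNAA, to which ATF4 binds with its C/EBP partners, was found in the promoters of Trib3 and Chac1, 2 of the 7 genes of this branch, and in that of Herpud1, against 983 of all 27457 genes (3.58%). The stretches of Trib3 (chr3:161275537-161275564, - strand) and Chac1 (chr3:126795954-126795981, + strand) are shown because this pair of carriers was placed differently with the vector, at -0.48 and 0.20. Both matches are on the other strand, so the capitals read as the reverse complement of the core.
Trib3 core: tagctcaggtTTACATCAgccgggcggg
Chac1 core: ttctccgccgTTGCATCActcctgctag
These letters are not in the window of Asns, which says nothing about ATF4 at that gene.

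**Figure D3:**
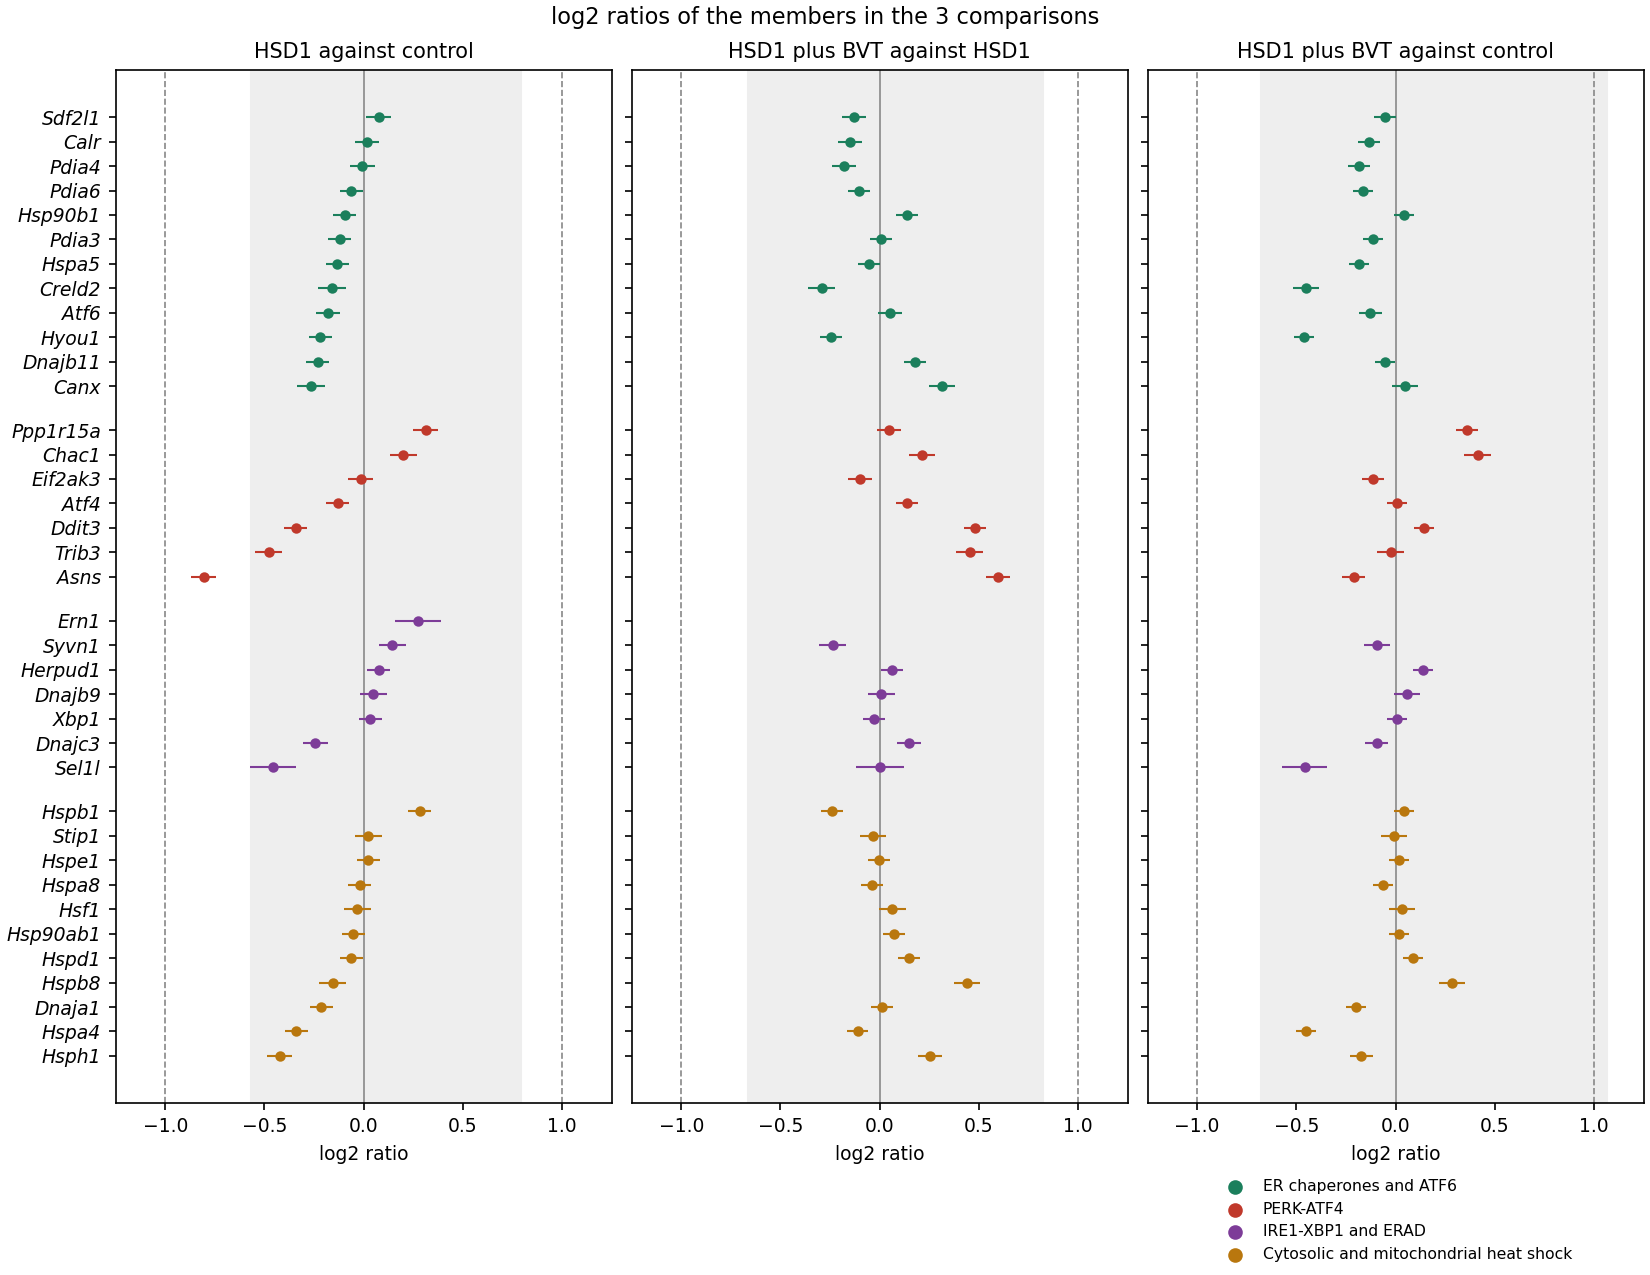
log2 ratio of each member in HSD1 against control, HSD1 plus BVT against HSD1 and HSD1 plus BVT against control, coloured by branch, with bars of 1 technical SD of a ratio of spots at that signal. Dashed lines mark 2-fold and the grey band holds all genes measured but the lowest 2.5% and the highest 2.5% (-0.57 to 0.79 in HSD1 against control). Asns (-0.81) is the only plotted member outside a band, in HSD1 against control, and no plotted member reaches a dashed line. Ern1 is plotted only in HSD1 against control.

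The median of the IRE1-XBP1 branch was near 0 with the scaling used here. It was 0.05 with the vector (5 of 7 above 0) and 0.01 in HSD1 plus BVT against HSD1 (4 of 6 above 0). In HSD1 plus BVT against control it was -0.04 (3 of 6 above 0). Over the settings it ranged from -0.00 to 0.05, from -0.03 to 0.03 and from -0.11 to -0.02 in these comparisons. Xbp1 had levels of 3.60 on the control array, 3.63 on the HSD1 array and 3.61 on the HSD1 plus BVT array, so with this scaling its arrays differed by less than the technical SD. With quantile normalization its ratio of HSD1 plus BVT to HSD1 was -0.11. Its probe reports the transcript as a whole as far as the files tell, and splicing by IRE1 was not measured here.

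Ern1, the gene of the sensor IRE1 itself, was dim, with levels of -6.18 in control and -5.91 in HSD1, and -7.11 in HSD1 plus BVT, where it was not well above background. Against the dimmest signal that counted as well above background on the inhibitor array, HSD1 was at least 1.73-fold higher and control at least 1.43-fold higher. Its ratio of 0.27 for HSD1 against control had a technical SD of 0.12 at this signal and became -0.02 with quantile normalization, so its direction with the vector depends on the scaling.

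Among the ERAD genes, Sel1l, the scaffold of the ubiquitin ligase that Syvn1 encodes, had levels of -2.13 (control), -2.59 (HSD1) and -2.58 (HSD1 plus BVT). Control was the high array, 1.37-fold above either of the others, and a dimmer probe gave -0.24 with the vector and -0.07 for HSD1 plus BVT against control. Syvn1, also called HRD1, had levels of -0.72, -0.57 and -0.81. HSD1 was the high array and the ratio of HSD1 plus BVT to HSD1 was -0.24, the lowest of the 6 genes of the branch measured on both arrays, so this pair of partners was not placed alike.

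Herpud1, which links ERAD factors and is strongly induced by ER stress in many cells, had levels of 1.72, 1.80 and 1.86, with control and HSD1 plus BVT 0.14 apart. Dnajc3, which encodes the kinase inhibitor and BiP co-chaperone p58IPK, had levels of 0.34, 0.10 and 0.24, with HSD1 the low array (1.18-fold below control). Dnajb9, a co-chaperone that restrains IRE1 and a target of XBP1, was within 0.06 of 0 in all comparisons.

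Heat shock genes were likewise spread on both sides of 0. Their medians were -0.05 with the vector (8 of 11 below 0), 0.01 in HSD1 plus BVT against HSD1 (6 of 11 above 0) and 0.02 in HSD1 plus BVT against control (6 of 11 above 0), and the second turned to -0.06 and the third to -0.08 under other scalings. Hsf1, the transcription factor of the response, had levels of -1.68 on the control array, -1.71 on the HSD1 array and -1.65 on the HSD1 plus BVT array. Its arrays were within 0.06 of each other, below the technical SD at its signal.

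Hsph1 and Hspa4, large Hsp70 relatives that exchange nucleotide for Hsp70, were the lowest of the 11 heat shock genes with the vector. Hsph1 had levels of -0.13, -0.56 and -0.30, with HSD1 the low array, 1.34-fold below control (log2 ratio -0.42, technical SD 0.06). Hspa4 had levels of 2.85, 2.51 and 2.40. For Hspa4 control was the high array, with HSD1 1.27-fold and HSD1 plus BVT 1.37-fold below it.

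The small heat shock genes among the members, Hspb1 and Hspb8, differed from each other. Outside the members, Cryab, Hspb2, Hspb3, Hspb6 and Hspb7 were all above 0 with the vector (0.46, 0.29, 0.32, 0.15 and 0.19), as were 59.3% of all genes. They were picked from a list of other chaperones in which 17 of 54 were above 0 (median -0.06). Hspb1, the Hsp27 of muscle and other cells, had levels of 2.17, 2.46 and 2.22. HSD1 was the high array, 1.22-fold above control, and the inhibitor array was 1.18-fold below HSD1. Hspb8, which acts with BAG3 in the autophagy of damaged muscle proteins, had levels of -1.68, -1.84 and -1.40. The inhibitor array was highest, 1.36-fold above HSD1 (0.44, or 0.27 under the normexp correction) and 1.22-fold above control.

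Apart from Dnaja1, the remaining members of this branch were within 0.15 of 0 for the probe used. The cytosolic chaperone Hspa8, or Hsc70, had ratios of -0.02, -0.04 and -0.06, and its 3 other probes gave -0.13 to -0.10 with the vector and 0.06 to 0.22 for HSD1 plus BVT against HSD1. The others were the mitochondrial chaperonins Hspd1 (-0.06, 0.15 and 0.09) and Hspe1 (0.02, -0.01 and 0.02), the cytosolic Hsp90ab1 (-0.05, 0.07 and 0.02) and the Hsp70-Hsp90 adaptor Stip1 (0.02, -0.03 and -0.01). A dimmer probe of Hsp90ab1 gave 0.19 with the vector and -0.12 for HSD1 plus BVT against HSD1. A dimmer probe of Hspe1 gave -0.08 and 0.14. Both were opposite in sign to the brighter probe in these comparisons. The Hsp40 gene Dnaja1 was at -0.21, 0.01 and -0.20, with control the high array.

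The heat shock element, GAANNTTCNNGAA or TTCNNGAANNTTC, to which HSF1 binds as a trimer, was found in 4 of the 11 heat shock genes with a promoter in the table (36.4%), Hsph1, Hspa8, Hspd1 and Hspe1, against 182 of all 27457 genes (0.663%). Hspd1 and Hspe1 lie head to head, and their matches are the same bases of chromosome 9 read from either strand, with both forms overlapping. The stretches of Hsph1 (chr12:10427322-10427354, + strand), the start-proximal site of Hspa8 (chr8:50080449-50080481, + strand) and Hspe1 (chr9:64084252-64084289, + strand) are shown because carriers ranged from the lowest member of the branch with the vector, Hsph1, to members near 0. Capitals mark the matches.
Hsph1 element: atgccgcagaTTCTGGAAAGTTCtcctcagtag
Hspa8 element: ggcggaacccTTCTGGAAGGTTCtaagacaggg
Hspe1 element: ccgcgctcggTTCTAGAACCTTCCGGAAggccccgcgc
With the vector Hsph1 was at -0.42, Hspd1 at -0.06, Hspa8 at -0.02 and Hspe1 at 0.02.

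Other genes of these pathways were taken from lists made by name. Of 40 other ATF4 targets, 35 were measured in HSD1 against control. Their median was -0.16 with 25 of 35 below 0, and between HSD1 plus BVT and HSD1 it was 0.18 with 26 of 35 above 0, beside -0.13 and 0.21 for the members of the PERK-ATF4 branch and 0.06 and 0.01 for all genes. Over 36 genes the median of HSD1 plus BVT against control was 0.03. The first 2 of these comparisons share the HSD1 array.

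Among the ATF4 targets 1 was called, in HSD1 against control (1 of 35, beside 1.89% of all genes). Gdf15, which encodes a stress-induced hormone, had levels of -1.80 (control), -3.21 (HSD1) and -2.64 (HSD1 plus BVT). HSD1 was the low array, 2.66-fold below control, and HSD1 plus BVT lay between the others, 1.49-fold above HSD1 and 1.78-fold below control. Atf5, a transcription factor controlled like ATF4, was the most extreme target in HSD1 plus BVT against HSD1, with levels of -0.56, -0.82 and -0.05 and a ratio of 0.77. Among 13 genes of the eIF2α kinases, the eIF2B complex and the phosphatase that acts on eIF2α, none was called. The most extreme with the vector was Eif2ak2, the interferon-induced kinase PKR, with levels of -0.15, -0.90 and -0.42, and in HSD1 plus BVT against control it was Eif2b2, a subunit of eIF2B, with a ratio of 0.30.

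Of 42 genes of the ER translocon, glycosylation and ERAD, 1 was called, in both comparisons with the inhibitor array. Over all genes 2.08% and 3.69% were called there, so 1 of 42 is not a count particular to the list. Derl3, an ERAD membrane protein, had levels of -3.70 on the control array, -3.64 on the HSD1 array and -4.83 on the HSD1 plus BVT array. Control and HSD1 were 0.06 apart and the inhibitor array was low, 2.29-fold below HSD1 and 2.19-fold below control. Under a normexp background correction these ratios were -0.81 and -0.69, which ends the call. The median of the list was -0.06 in HSD1 plus BVT against HSD1, with 30 of 42 below 0, beside 0.01 and 48.8% for all genes. With quantile normalization the median of all genes was -0.03 there. With the vector the most extreme gene was Ube2g2, an ERAD ubiquitin-conjugating enzyme, at 0.60. Derl3 also holds an ERSE, in the stretch chr20:12766591-12766629 on the - strand, shown because Derl3 is the carrier with the largest ratio.
Derl3 ERSE: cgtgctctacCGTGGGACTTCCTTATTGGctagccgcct

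Among 34 other ER folding factors measured, 1 was called, in HSD1 plus BVT against HSD1, beside 2.08% of all genes. Clgn, the testis form of calnexin, was dim, with levels of -5.50, -5.10 and -6.22, and the inhibitor array was 2.18-fold below HSD1, a ratio of -1.12 that became -0.64 under the normexp correction. Ero1a, an oxidase that recharges the disulfide isomerases, was the most extreme with the vector, with levels of 1.56, 0.91 and 1.47. Its HSD1 array was low, 1.57-fold below control, an order like that of Asns. Its relative Ero1b had the lowest ratio of HSD1 plus BVT to control, -0.78, which ranged from -0.97 to -0.48 over the settings.

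Among 54 other chaperones and co-chaperones of the cytosol and mitochondria, 1 was called. This was Fkbp5, called in both comparisons with control, beside 1.89% and 3.69% of all genes. It encodes an Hsp90 co-chaperone of steroid receptors and is a well-known glucocorticoid target. Its levels were 0.62 (control), 2.69 (HSD1) and 2.68 (HSD1 plus BVT). Control was the low array, with HSD1 4.22-fold and HSD1 plus BVT 4.19-fold above it, and the ratio of HSD1 plus BVT to HSD1 was -0.01. Hspa9, the mitochondrial Hsp70, was the most extreme in HSD1 plus BVT against HSD1, with levels of 1.76, 1.34 and 1.82 and a ratio of 0.47. The list's median was -0.06 with the vector and 0.07 in HSD1 plus BVT against HSD1.

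**Figure D4:**
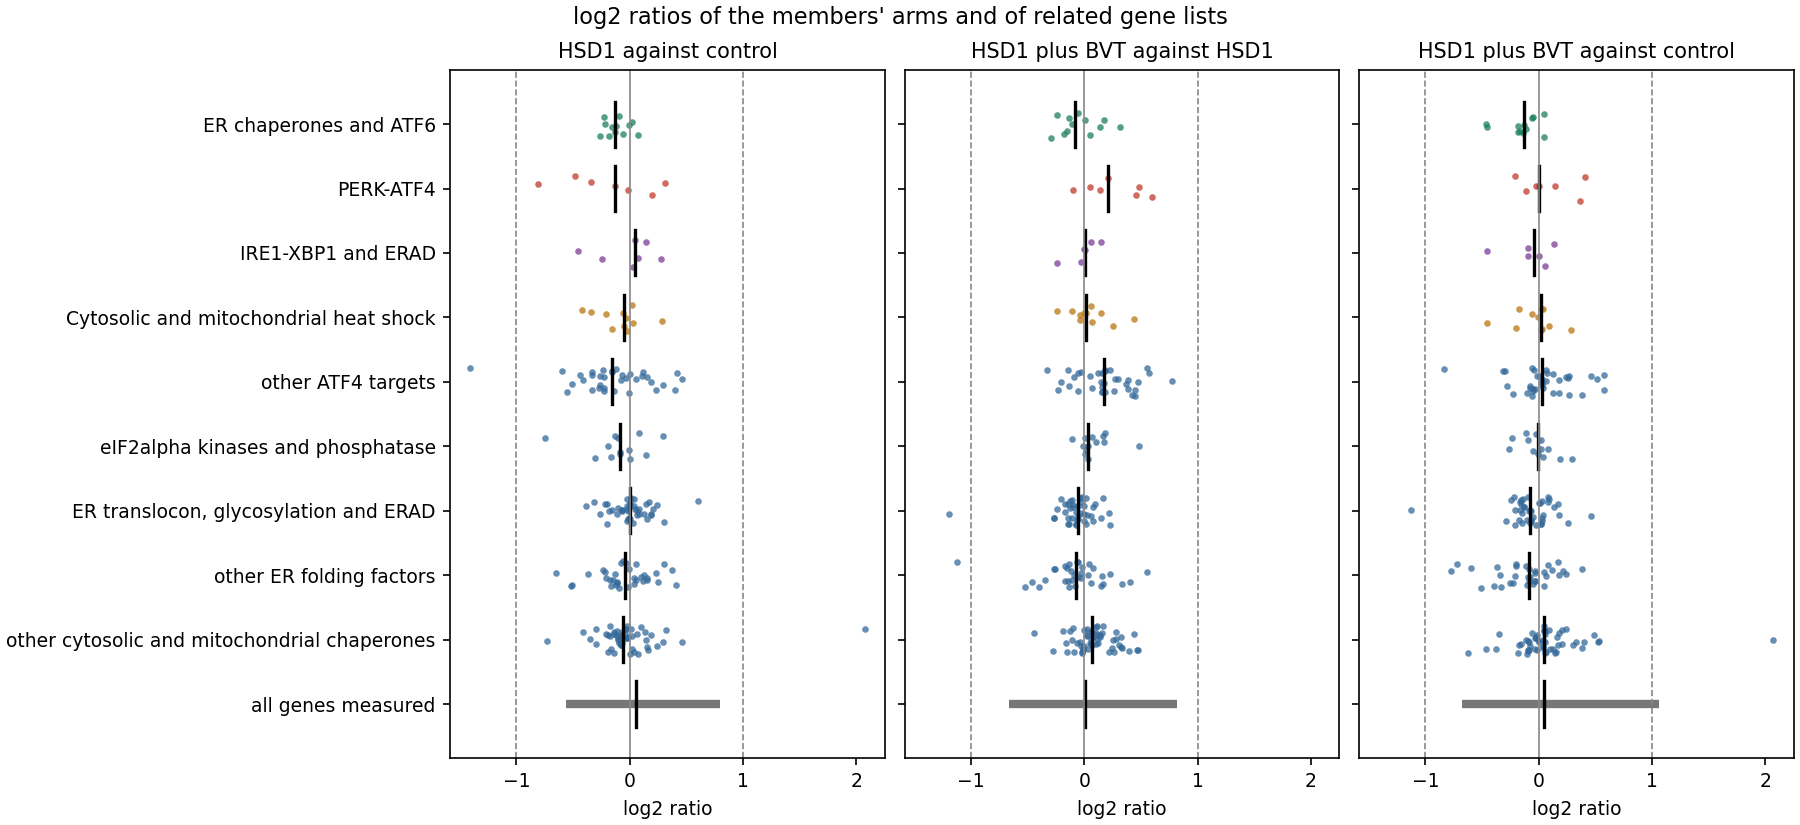
log2 ratio of every measured gene of the 4 branches and of 5 related gene lists in the 3 comparisons, with each list's median as a black bar, dashed lines at 2-fold, and for all genes measured a grey bar that leaves out the lowest 2.5% and the highest 2.5%. The medians of the other ATF4 targets (-0.16, 0.18 and 0.03) lie near those of the PERK-ATF4 branch (-0.13, 0.21 and 0.01, the last turning below 0 under other scalings), and the point far to the right is Fkbp5 (2.08 and 2.07 against control).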

How the data were processed

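RNA of 3 pools of cells was labelled with Cy3 per the labels' protocols and read on 1 array each. Per the file headers and the submitters' processing notes, the software was Agilent Feature Extraction 11.0.1.1. The deposited intensity values are processed signals per spot, already corrected for background, beside median spot and local background brightness. A second source is the log2 table of the authors (median 6.70 in each column, r of 0.999 with the log2 scanner signal on each array, genes not centred), for which no method was given in the sources used here.

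For a level, the percentile 75 over all spots that are not controls (1320, 1169 and 1549 for control, HSD1 and HSD1 plus BVT) was subtracted on the log2 scale. Spots marked as outliers (311, 409 and 363) were dropped and the other spots of each probe averaged. Probes were named through their accession in RefSeq's gene table of assembly GRCr8: of 30367 probes, 18005 matched 1 gene and 12362 did not match. Ratios use genes well above background on both arrays. A bound sets the measured level against the lowest one well above background on the other array. The technical SD comes from 1244 probes printed 10 times. The number of arrays limits the precision.

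Members and lists were chosen with earlier results of these data known. Levels on all arrays are given for members with a ratio of at least 0.5 in size, the highest and lowest member of each branch per comparison, and Atf6, Eif2ak3, Ern1, Atf4, Xbp1, Ddit3, Hsf1 and Hspa5. From the other lists, called genes or else the most extreme gene are named, with the small heat shock genes added outside this rule. Results were recomputed with quantile normalization, with cyclic loess, the authors' table, no filter on dim probes, the mean over probes, and normexp with an offset of 50 after a cap on very bright local backgrounds, which was chosen after seeing the data. Tools were R 4.3.3 with limma 3.58.1 and Python 3.11.15 with pandas 2.3.3, and the steps were tested on simulated data. Motifs were counted per gene over any of its starts. The promoter of 1 member is not reported here.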

Additional observations from a re-analysis of the deposited data

How the results depend on the processing

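The number of measured members changed 2-fold stayed at 0 in each comparison under the other settings, except that without a filter on dim probes 1 member, Ern1, passed in HSD1 plus BVT against HSD1. The median of all members ranged from -0.10 to -0.06 in HSD1 against control, from -0.02 to 0.05 in HSD1 plus BVT against HSD1, where its sign turned, and from -0.10 to -0.04 in HSD1 plus BVT against control. The ratios of 29 of 37, 26 of 36 and 27 of 36 members kept their sign under all settings. Among ratios of at least 0.2 in size these counts were 13 of 14, 11 of 11 and 9 of 9, the exception being Ern1. The calls of Gdf15 and Fkbp5 held under all 6 settings, those of Derl3 and Clgn under 5 of 6. Dropping the filter on dim probes cannot change a measured ratio, and the mean over probes changes only genes with several probes. The authors' table gave values close to those of quantile normalization. The 6 settings are therefore not 6 separate checks.

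Over all genes, quantile normalization moved the split of 2-fold calls from 159 higher and 65 lower to 118 and 92 in HSD1 against control, from 176 and 68 to 168 and 78 in HSD1 plus BVT against HSD1, and from 345 and 88 to 194 and 154 in HSD1 plus BVT against control. The planned normexp correction was not run as planned, because a very bright local background on the HSD1 array spoiled its estimate. A version with local backgrounds capped at 10 median absolute deviations above the median (7 spots on the HSD1 array and 8 on the HSD1 plus BVT array) was chosen after seeing the data. With 1 array per group no array can be left out. No paired analysis was possible because each group has 1 array.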

Other observations

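Among the other ATF4 targets, the aminoacyl-tRNA synthetases, which load amino acids onto tRNAs, were grouped after their values were seen. They are among the ATF4 targets given above, so these values partly repeat those. All 10 with a measured probe were below 0 in HSD1 against control, from -0.44 for Cars1 to -0.03 for Yars1 (median -0.19). Over all genes 40.7% were below 0 there (median 0.06). With the inhibitor against HSD1, 9 of 10 were above 0 (median 0.21), with Sars1 highest at 0.42 and Tars1 at -0.09, and in HSD1 plus BVT against control 5 of 10 were on each side (median -0.01). The first of these comparisons and the second share the HSD1 array, and none of the 10 changed 2-fold.

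Genes that hold an ERSE, whatever their list, were also grouped after the values were seen. Of the 21, 15 were measured. The 15 include the 7 members that hold an ERSE, and Derl3 and Ero1b, so their medians partly repeat values given above. Their medians were -0.10, -0.05 and -0.13 in HSD1 against control, HSD1 plus BVT against HSD1 and HSD1 plus BVT against control, with 9 of 15 below 0 each time, beside 0.06, 0.01 and 0.05 for all measured genes with a promoter in the table. Of the 14 genes that hold an ERSE-II, 11, 10 and 10 were measured in these comparisons, with medians of 0.12, 0.00 and 0.12. For the CCAAT/ATF response element core, 215, 210 and 210 measured carriers had medians of 0.08, 0.03 and 0.11. Carriers of the heat shock element (39, 37 and 37 measured) had medians of 0.06, 0.07 and 0.12. Those of the core TGACGTGG (68, 66 and 66 measured) had -0.001, -0.07 and -0.03.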
